A study of Mus musculus with 19 samples.

Results

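The genes described here control entry into the cell division cycle: the D-type cyclins Ccnd2 and Ccnd3, cyclin E1 (Ccne1), the kinases Cdk4, Cdk6 and Cdk2, the inhibitors Cdkn1b and Cdkn2c, the retinoblastoma gene Rb1 and the transcription factor gene E2f1. They were chosen by name, and every probe set (a group of short array probes for 1 transcript) that the platform annotation pairs with 1 of these symbols was taken. Of the 10 genes, 9 were represented, by 14 of the 12422 probe sets used. No probe set in the annotation carried the symbol Cdk6, so that gene is not analysed here. A filter on low signals (mean signal over all arrays above the 30th percentile, 26.37) left 8695 probe sets for testing, 10 of them from these 9 genes. The 4 that stayed under the filter, 1 each for Cdkn1b, Rb1, Cdk2 and E2f1, are given as values.

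RNA was measured on 19 oligonucleotide arrays of OT-I cells, CD8 T cells with a transgenic receptor for an ovalbumin peptide, after their transfer into B6 mice and sorting from lymph node and spleen. Hosts were either not irradiated (n = 4, sorted at day 6 by the descriptions) or irradiated, with cells taken at day 5 (n = 8), day 40 (n = 4) or day 115 (n = 3). The day-5 samples are named day 5 in their titles and day 6 in their descriptions, and for arrays 1 and 2 of that group the cell type is left out. Unirradiated hosts at day 40 or day 115 are not analysed here, so time since transfer and irradiation cannot be told apart in those comparisons. The labels give no host age, transferred cell number or animal per array. P-values therefore measure only the spread between these samples, which may be technical.

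In resting T cells, Rb1 protein holds E2F factors inactive. A mitogenic signal raises D-type cyclins, which bind Cdk4 or Cdk6 and start the phosphorylation of Rb1. Cyclin E1 with Cdk2 continues it, and freed E2F drives the genes of DNA synthesis. Inhibitors of the Ink4 family, among them Cdkn2c, bind Cdk4 and Cdk6 and displace the D cyclins, while Cdkn1b binds cyclin-kinase complexes and is best known as a brake on Cdk2. T cells placed in a lymphocyte-depleted host divide without foreign antigen, a process called homeostatic proliferation that depends on self peptides and on interleukin 7.

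The arrays fell into 2 clusters that cut across the groups, found by average linkage on all tested probe sets except those of the 9 genes. All 3 day-115 arrays, the first 2 arrays of day 40 and the first 3 of day 5 made up cluster 1. The other arrays, among them all 4 unirradiated ones, made up cluster 2. The median Pearson correlation was 0.974 between arrays of the same group and cluster, 0.962 between arrays of different groups in the same cluster, and 0.884 between arrays of the same group in different clusters. The labels do not say what the clusters are. Because unirradiated arrays lay only in cluster 2 and day-115 arrays only in cluster 1, that comparison is given with and without array cluster as a term. Some of the others are also given within a cluster that holds arrays of both groups.

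Upstream sequences are shown for Cdk4, Ccnd3 and Cdkn2c, the genes with a rise that passed the test in a comparison with unirradiated hosts. Each is the 250 bases before an annotated RefSeq start (build GRCm38.p6), printed 5′ to 3′ on the gene's strand, with capitals marking CACGTG, the E-box word that Myc and related factors bind. RefSeq windows were matched for 8 of the 10 genes.
Cdk4, chr10:127063285-127063534, plus strand: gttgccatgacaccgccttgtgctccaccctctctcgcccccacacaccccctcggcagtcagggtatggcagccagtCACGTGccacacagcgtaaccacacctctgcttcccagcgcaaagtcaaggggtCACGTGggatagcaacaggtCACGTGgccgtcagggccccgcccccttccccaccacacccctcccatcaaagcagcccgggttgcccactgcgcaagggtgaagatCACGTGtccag
Ccnd3, chr17:47504801-47505050, plus strand: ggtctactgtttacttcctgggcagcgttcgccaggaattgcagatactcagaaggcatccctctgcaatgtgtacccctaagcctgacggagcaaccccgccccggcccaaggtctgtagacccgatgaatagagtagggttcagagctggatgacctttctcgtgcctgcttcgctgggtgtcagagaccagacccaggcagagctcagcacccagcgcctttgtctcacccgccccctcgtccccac
Cdkn2c, chr4:109666757-109667006, minus strand: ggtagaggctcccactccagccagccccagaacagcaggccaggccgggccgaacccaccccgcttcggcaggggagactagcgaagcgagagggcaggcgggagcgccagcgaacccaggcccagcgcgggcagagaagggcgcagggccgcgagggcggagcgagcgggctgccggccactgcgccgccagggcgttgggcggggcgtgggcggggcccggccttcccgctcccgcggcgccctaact
The Cdk4 window held 4 copies of CACGTG, which reads the same on both strands, at 172, 118, 98 and 11 bases before the start. The Ccnd3 and Cdkn2c windows held 0, as did the window of a further annotated start of each of these genes, which is not printed. Of 32851 RefSeq upstream windows of the same length, 6.02% held at least 1 copy and 0.0213% (7 windows) held at least 4. The 8-letter E2F words TTTCCCGC, TTTGGCGC, TTTCGCGC and TTTGGCGG, searched on both strands, occurred in 1.96% of all windows. Among the windows of the members they occurred only in that of Cdk2, at 140 bases before its start. The matched windows of E2f1 and Cdk6 lie inside those genes, before an inner annotated start. The bases before the outer end of E2f1 and Cdk6 were not searched, so nothing is said of them. These are letter matches and not measured binding. The RNA of Myc was not called: its log2 difference from unirradiated hosts was 0.34 at day 5 (limma adjusted p = 0.612) and 0.49 at day 115 (limma adjusted p = 0.352), and the latter was -0.45 with array cluster as a term. Myc protein was not measured, and whether Myc or a related factor acts on Cdk4 here was not tested.

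Ccnd2, which encodes the cyclin D2 partner of Cdk4 and Cdk6, had the widest spread over arrays. In unirradiated hosts its signal was 1346, 1545, 1469.7 and 1242 (mean 1400 ± 134, SD, n = 4). In day-5 arrays 1 to 3 it was 294, 263 and 200.2, and in day-5 arrays 4 to 8 it was 1019.7, 1295, 1472, 1584 and 1244. Day-40 arrays 1 and 2 read 249 and 329.6, and arrays 3 and 4 read 1237 and 1014. The day-115 arrays read 229.5, 267 and 186. Every array of cluster 1 lay between 186 and 329.6 and every array of cluster 2 between 1014 and 1584, whatever its group. Ccnd2 was the only probe set of the 14 whose signals did not overlap between the clusters over all 19 arrays. How many of all probe sets split in this way was not counted, so how unusual such a split is cannot be said.

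The group means of Ccnd2 therefore follow how many arrays of each cluster a group holds. Relative to unirradiated hosts, the log2 difference was -0.96 ± 0.55 (SE) at day 5 (limma adjusted p = 0.431), -1.27 ± 0.63 at day 40 (adjusted p = 0.351) and -2.55 ± 0.68 at day 115 (adjusted p = 0.0122). When array cluster was added as a term these became -0.15, -0.18 and -0.37, and none passed the test. For day 115 the 95% interval with the term ran from -0.85 to 0.11, and its adjusted p was 0.349 (0.00672 to 0.385 over all alternatives). Within cluster 2, the 5 day-5 arrays differed from the 4 unirradiated arrays by -0.09 (95% interval -0.39 to 0.21, adjusted p = 0.83). Among the day-115 and unirradiated arrays themselves, group and cluster cannot be told apart, since each group lies in 1 cluster. The term rests on the day-5 and day-40 arrays, which lie in both.

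**Figure D1:**
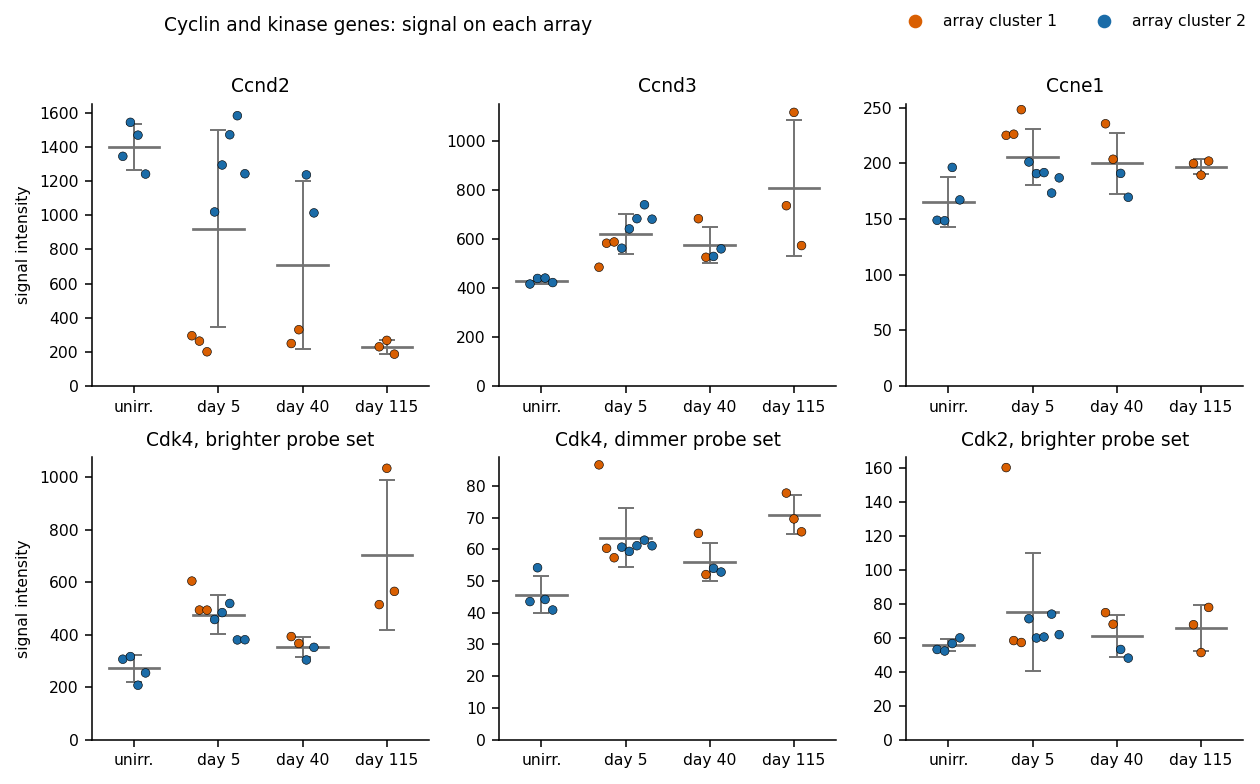
Signals of the tested cyclin and kinase probe sets on every array (vertical axis, signal intensity on a linear scale from 0) by group. Points are arrays, orange for cluster 1 and blue for cluster 2, and grey lines give the group mean ± SD. Ccnd2 splits into 186 to 329.6 (cluster 1) and 1014 to 1584 (cluster 2), while Ccnd3 in every irradiated array lies above the 4 unirradiated arrays.

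Ccnd3, which encodes cyclin D3, the D cyclin that developing thymocytes depend on, moved the other way and did not split by cluster. Its signal in unirradiated hosts was 416, 439, 440.1 and 422 (mean 429.1 ± 12.1, SD, n = 4). At day 5 the 8 arrays ran from 484 to 739 with a mean of 619.9 ± 81.45. At day 40 they read 682, 525, 528 and 559, and at day 115 735, 1116 and 573. All 15 arrays from irradiated hosts were above all 4 from unirradiated hosts. The share of all tested probe sets that separate in this way was not counted. The same holds for each lack of overlap reported below, so how unusual it is cannot be said.

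The rise of Ccnd3 passed the test at day 115, with a log2 difference of 0.84 ± 0.20 (SE, limma adjusted p = 0.00677). With array cluster as a term it was 0.95 ± 0.23 (adjusted p = 0.0234, from 0.00256 to 0.04 over all alternatives). Without day-115 array 2, the highest array, it was 0.58 (adjusted p = 0.04). At day 5 the difference of 0.50 ± 0.16 did not pass over all arrays (limma adjusted p = 0.174). Within cluster 2 it was 0.60 ± 0.10 and passed (adjusted p = 0.00958, from 0.00958 to 0.457 over the alternatives). At day 40 it was 0.40 ± 0.18 (adjusted p = 0.307). None of the 3 comparisons among irradiated groups passed for Ccnd3, and the widest of them, day 115 against day 40, was 0.44 (95% interval 0.02 to 0.85, adjusted p = 0.353).

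Cyclin E1, the partner of Cdk2 late in G1, differed less. Ccne1 signals averaged 165.1 ± 22.52 (n = 4) in unirradiated hosts, 205.4 ± 25.19 (n = 8) at day 5, 199.9 ± 27.61 (n = 4) at day 40 and 197 ± 6.75 (n = 3) at day 115. Its day-5 difference of 0.29 (95% interval 0.05 to 0.53) did not pass (limma adjusted p = 0.275). Within day 5, Ccne1 went against Ccnd2: arrays 1 to 3 read 225 to 248 and arrays 4 to 8 read 173 to 201, with no overlap.

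Cdk4, the kinase that D-type cyclins activate, had 2 tested probe sets, which changed in the same direction. On the brighter one unirradiated arrays read 307, 317, 207 and 254 (mean 271.3 ± 50.61, SD, n = 4), and the 8 day-5 arrays ran from 380.3 to 605 (mean 477 ± 73.37). Day-40 arrays read 393, 367, 304 and 352, and day-115 arrays read 515, 1035 and 565. Every day-5 and every day-115 array lay above all unirradiated arrays, while 3 of 4 day-40 arrays did. How many of all probe sets show such a separation was not counted. On the dimmer probe set the unirradiated arrays ran from 40.9 to 54.2, the day-5 arrays from 57.3 to 86.6, the day-40 arrays from 52.0 to 65.0 and the day-115 arrays from 65.5 to 77.7.

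At day 115 the brighter Cdk4 probe set was higher by a log2 difference of 1.28 ± 0.22 (SE, limma adjusted p = 0.00134) and the dimmer by 0.50 ± 0.11 (adjusted p = 0.00463). With array cluster as a term, the brighter was 1.04 ± 0.25 and still passed (adjusted p = 0.0255, from 0.001 to 0.0315 over all alternatives). The dimmer was 0.39 and did not (adjusted p = 0.0879, from 0.00405 to 0.114). At day 5 the brighter probe set passed narrowly, at 0.78 ± 0.18 (limma adjusted p = 0.0455), and at 0.69 with array cluster as a term (adjusted p = 0.0432) and within cluster 2 (adjusted p = 0.0285). That call was lost when any of day-5 arrays 1 to 6 or any unirradiated array was left out, with adjusted p up to 0.201. The dimmer probe set missed the threshold over all arrays, at 0.37 ± 0.09 (adjusted p = 0.0576), and passed within cluster 2, at 0.32 (adjusted p = 0.0194, from 0.0173 to 0.259 over the alternatives).

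Between irradiated groups, the brighter Cdk4 probe set was higher at day 115 than at day 40 by 0.90 ± 0.22, and the arrays did not overlap, but this missed the threshold over all probe sets (limma adjusted p = 0.140). In that comparison 0.092% of the 8695 tested probe sets passed. At day 40 neither Cdk4 probe set passed against unirradiated hosts (0.38, adjusted p = 0.393, and 0.22, adjusted p = 0.300).

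Cdk2, the kinase partner of cyclin E1, was not called in any comparison. Its tested probe set averaged 55.4 ± 3.54 (n = 4) in unirradiated hosts, 75.31 ± 34.8 (n = 8) at day 5, 60.91 ± 12.5 (n = 4) at day 40 and 65.55 ± 13.41 (n = 3) at day 115. The day-5 mean was raised by array 1, at 160.1, while the other 7 arrays ran from 57.2 to 73.9. The second Cdk2 probe set was under the filter, at 14.2 to 24.8 over all 19 arrays.

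The inhibitor Cdkn2c (p18Ink4c) was the other gene called at day 5. Its signal in unirradiated hosts was 63.9, 55.7, 51.6 and 43.4 (mean 53.64 ± 8.51, SD, n = 4), and at day 5 it ran from 64.1 to 100.7 (mean 78.28 ± 11.35, n = 8). The groups did not overlap, although the lowest day-5 array stood just above the highest unirradiated array. How common such a separation is over all probe sets was not counted. Day-40 arrays averaged 65.37 ± 5.98 and day-115 arrays 62.26 ± 8.31, both overlapping the unirradiated range. The day-5 log2 difference was 0.44 ± 0.10 (SE, limma adjusted p = 0.0447). It was 0.39 with array cluster as a term (adjusted p = 0.0521, not passed) and 0.40 within cluster 2 (adjusted p = 0.0451), with 0.0079 to 0.237 over all alternatives. As for Cdk4, leaving out any of day-5 arrays 1 to 6 or any unirradiated array ended the call. From day 5 to day 115 the difference was -0.27 (adjusted p = 0.106), or -0.35 with array cluster as a term (adjusted p = 0.0499, from 0.0499 to 0.371). Within cluster 1 it was -0.33 and did not pass (limma adjusted p = 0.224).

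Cdkn1b (p27Kip1), whose protein is lowered when T cells start to divide, was near the filter. Its brighter probe set averaged 25.75 ± 4.18 (n = 4), 25.96 ± 4.32 (n = 8), 26.75 ± 1.87 (n = 4) and 28.82 ± 1.87 (n = 3) in unirradiated, day-5, day-40 and day-115 arrays. All 4 ranges overlapped. The day-5 difference was 0.01 (95% interval -0.15 to 0.16, limma adjusted p = 0.971), so a change of this signal as large as that of Cdkn2c lay outside the interval on this scale. Whether so dim a signal follows the messenger was not tested, so the interval does not exclude a change of the messenger. That scale, log2 of signal plus 16, understates fold changes of dim probe sets such as this. The dimmer Cdkn1b probe set, under the filter, averaged 14.4 ± 1.2 (n = 4) in unirradiated and 13.27 ± 0.79 (n = 8) in day-5 arrays. It averaged 13.64 ± 1.23 (n = 4) at day 40 and 17.33 ± 5.72 (n = 3) at day 115. Day-115 array 3 read 23.93, and arrays 1 and 2 read 13.75 and 14.31.

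**Figure D2:**
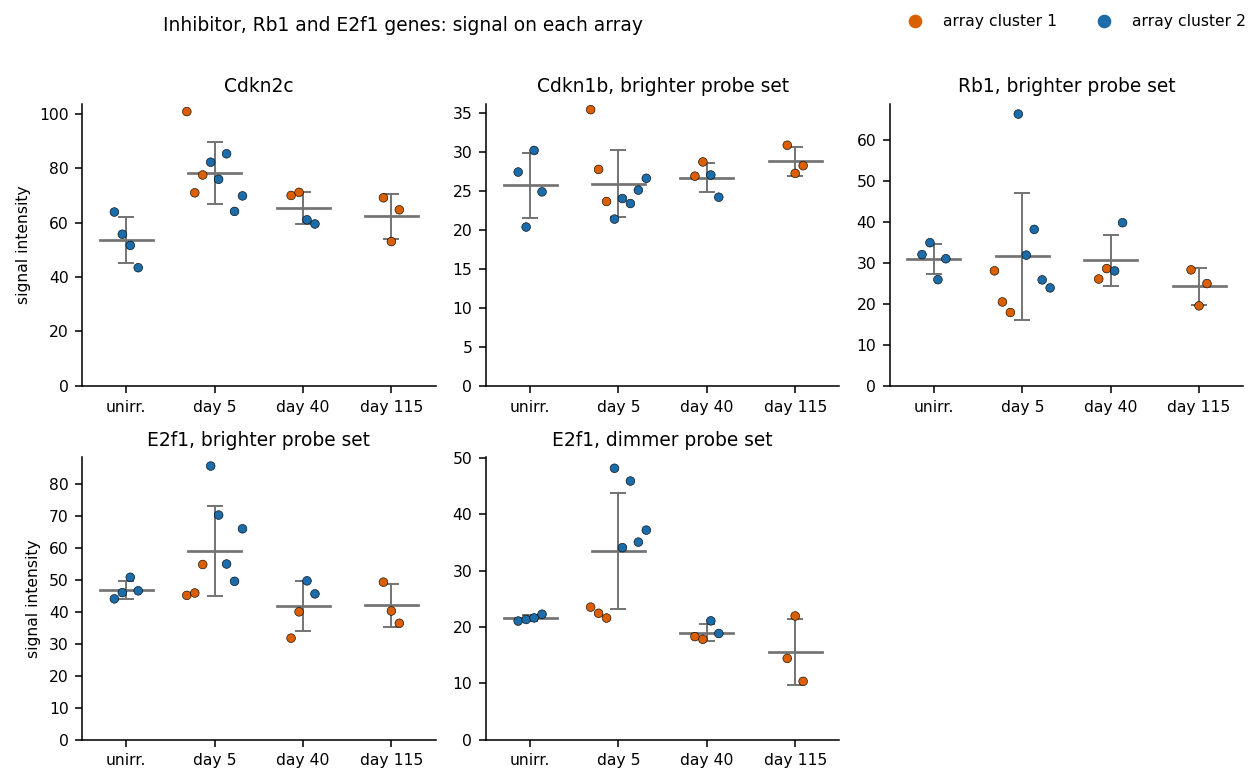
Signals of Cdkn2c, of the brighter probe sets of Cdkn1b and Rb1 and of both E2f1 probe sets on every array (vertical axis, signal intensity on a linear scale from 0) by group. Points are arrays, orange for cluster 1 and blue for cluster 2, and grey lines give the group mean ± SD. Cdkn2c in all 8 day-5 arrays (64.1 to 100.7) is above the unirradiated arrays (43.4 to 63.9), and the dimmer E2f1 probe set is high only in day-5 arrays 4 to 8 (34.1 to 48.2).

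Rb1, the pocket protein that these kinases inactivate, showed no call. Its brighter probe set averaged 30.99 ± 3.76 (n = 4) in unirradiated hosts, 31.6 ± 15.42 (n = 8) at day 5, 30.66 ± 6.21 (n = 4) at day 40 and 24.29 ± 4.43 (n = 3) at day 115. At day 5 array 4 read 66.3 and the other arrays 17.9 to 38.2. The dimmer Rb1 probe set, under the filter, averaged 14.37 ± 0.73 (n = 4) in unirradiated and 15.54 ± 3.63 (n = 8) in day-5 arrays. It averaged 15.12 ± 1.23 (n = 4) at day 40 and 13 ± 3.2 (n = 3) at day 115.

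E2f1, the activating E2F whose own gene is an E2F target, was read by 2 probe sets. The brighter averaged 46.88 ± 2.85 (n = 4) in unirradiated hosts, 59.05 ± 14.01 (n = 8) at day 5, 41.77 ± 7.77 (n = 4) at day 40 and 42 ± 6.61 (n = 3) at day 115. Its day-5 difference was 0.24 (limma adjusted p = 0.392). From day 5 to day 40 it was -0.37 ± 0.12 (adjusted p = 0.150), or -0.33 and past the threshold with array cluster as a term (adjusted p = 0.0406, from 0.0406 to 0.614). It passed neither within cluster 1 (-0.32, limma adjusted p = 0.614) nor within cluster 2 (-0.34, limma adjusted p = 0.168). The dimmer probe set was under the filter with a mean of 25.1, and its pattern was sharper. It read 21.0 to 22.3 in unirradiated arrays, 21.6 to 23.5 in day-5 arrays 1 to 3, 34.1 to 48.2 in day-5 arrays 4 to 8, 17.8 to 21.1 at day 40 and 10.3 to 21.9 at day 115. Thus the 5 day-5 arrays of cluster 2 were above all 14 others. With no filter and array cluster as a term, a fit chosen after the values were seen, its day-5 difference was 0.51 ± 0.10 (adjusted p = 0.0104), against 0.37 with no filter and no term (adjusted p = 0.29). In the fit with the term 0.902% of 12422 probe sets passed. Because that fit was picked on these same values, its p-value is no independent evidence for the pattern. The term also assumes the same cluster shift in every group. At day 40 the clusters read 17.8 to 18.3 and 18.8 to 21.1, a smaller shift than at day 5.

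Over these genes as a whole, 2 of 10 tested probe sets passed at day 5 (the brighter of Cdk4, and Cdkn2c, both higher), where 0.794% of all 8695 passed and 0.414% were higher. At day 40 none passed in limma, where 1.5% of all did, and 2 had an unadjusted p under 0.05. At day 115, 4 of 10 passed (both of Cdk4, and Ccnd3, higher; Ccnd2 lower), where 27.9% of all tested probe sets passed (15.1% higher and 12.8% lower), so that the share is not far from that of the array at large. With array cluster as a term, 1 passed at day 5 (1.61% of all) and 2 at day 115 (4.42% of all), namely the brighter Cdk4 probe set and Ccnd3. Within cluster 2, 4 passed at day 5 (both of Cdk4, Ccnd3 and Cdkn2c), where 2.38% of all did.

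None of the 10 passed in limma between irradiated groups. Unadjusted p was under 0.05 for 2 from day 5 to day 40, 4 from day 5 to day 115 and 3 from day 40 to day 115. The shares of all tested probe sets that passed were 1.25%, 13.9% and 0.092%. With array cluster as a term, 1 passed from day 5 to day 40 (E2f1, 7.48% of all) and 1 from day 5 to day 115 (Cdkn2c, 14.3% of all). All comparisons with unirradiated hosts share the same 4 control arrays, and those with day 5 the same 8 arrays.

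**Figure D3:**
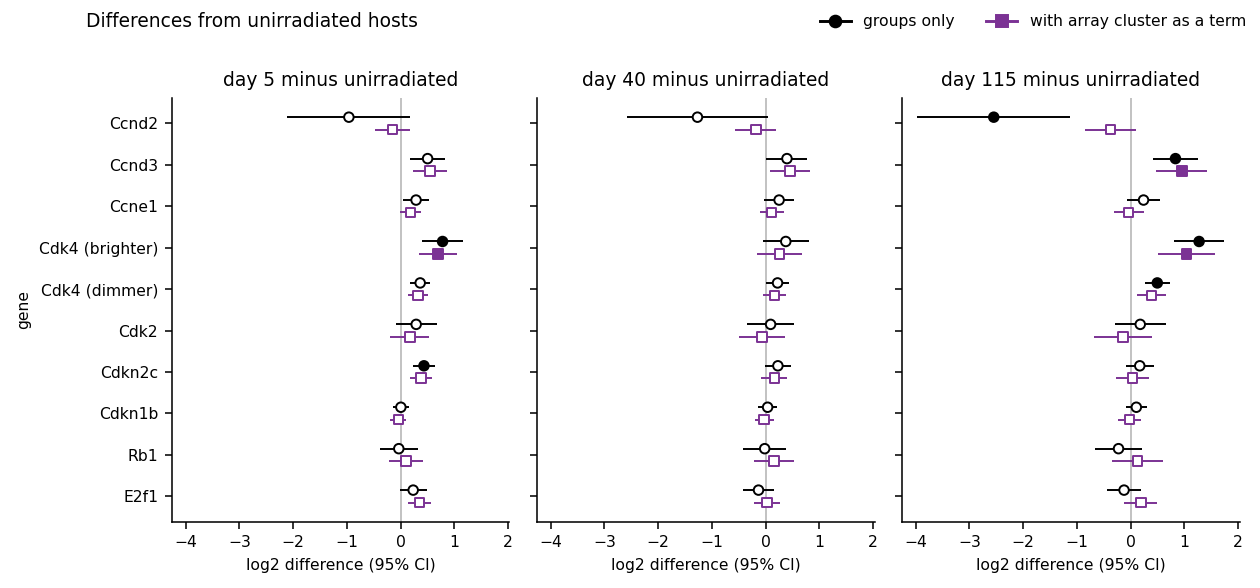
Log2 difference from unirradiated hosts (horizontal axis, log2 of signal plus 16) with its 95% interval for the tested probe sets at day 5, day 40 and day 115, from groups alone (black circles) and with array cluster as a term (purple squares), filled where called. Ccnd2 moves from -2.55 to -0.37 at day 115 when the term is added, whereas Ccnd3 (0.84 and 0.95) and the brighter Cdk4 probe set (1.28 and 1.04) stay above 0.

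Of 40 other listed G1 regulators (further cyclins, kinases, inhibitors, pocket proteins and partners), 22 genes were tested. At day 5 none was called in limma, though 7 had an unadjusted p under 0.05. Under the cluster term 2 were higher, beside 1% of all tested probe sets. At day 40, 1 was higher (1.16% of all tested probe sets were). At day 115, 2 were higher and 4 lower, beside 15.1% and 12.8% of all, with a median log2 difference of -0.23 against 0.01 over all tested probe sets. Cdc37, a chaperone partner that loads kinases including Cdk4 onto Hsp90, rose from 137.8 ± 10.89 (SD, n = 4) to 305.6 ± 95.72 (n = 4) at day 40 and 397 ± 42.63 (n = 3) at day 115. These were log2 differences of 1.02 ± 0.21 (SE, limma adjusted p = 0.0155) and 1.42 ± 0.22 (adjusted p = 0.000662), and with array cluster as a term 0.87 and 1.12, both past the threshold.

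The 4 other G1 regulators that were lower at day 115 did not pass under the term, as for Ccnd2. Rbl1, a relative of Rb1, differed by -1.33, Cul1, the scaffold of the SCF ubiquitin ligase, by -1.30, and cyclin C (Ccnc) by -1.18. Under the term these values were -0.15, -0.30 and -0.51. Between day 5 and day 115, 1 of the 22 was higher (Cdc37) and 3 were lower, beside 8.23% and 5.62% of all tested probe sets. Cyclin A2 (Ccna2), the S phase partner of Cdk2, fell by 0.96 ± 0.19 (SE, limma adjusted p = 0.00388), and by 0.95 with the term. Cks1b, a small subunit of the Cdk complex, fell by 0.95 (adjusted p = 0.0112). Cks2 fell by 2.03 (adjusted p = 0.0261), which the term reduced to a change of -1.15 (adjusted p = 0.12).

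Genes that E2F drives in S phase, downstream of the Cdk4 and Rb1 step, were tested for 28 of 35 listed. At day 5, 27 of 28 were above 0, with a median log2 difference of 0.45 against 0.03 over all probe sets. By the test 1 was called higher (Cdc45, a helicase subunit, 0.41, limma adjusted p = 0.0348), beside 0.414% of all probe sets, and 15 had an unadjusted p under 0.05. Under the cluster term 4 were higher, beside 1% of all probe sets: Cdc45, Cdc6, the ligase gene Lig1 and Slbp, which binds histone messengers. At day 40 none was called in limma (3 with an unadjusted p under 0.05) and the median was 0.03. Against day 5, the day-40 median was -0.33 and 1 was lower, beside 0.311% of all. Cdc6, which licenses origins, fell by 1.35 ± 0.26 (adjusted p = 0.0119), from 101.6 ± 65.64 (n = 8) to 25.58 ± 1.91 (n = 4). Under the cluster term 10 were lower from day 5 to day 40, beside 2.33% of all. At day 115 against unirradiated hosts 5 of the 28 were higher and 1 lower, where 15.1% and 12.8% of all probe sets were, so the count of those higher was near the share of the array at large. Mcm5 (1.26) and Mcm7 (1.11), subunits of the replicative helicase, and the polymerase gene Pold1 (1.17) were among those higher, and Pcna, the polymerase clamp, was -1.43. Under the cluster term Mcm5, Mcm7, Pold1 and Pcna differed by 0.80, 0.86, 0.36 and -0.73 and did not pass.

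Mitosis genes were tested for 22 of 30 listed. At day 5, 4 were called higher and none lower, beside 0.414% and 0.38% of all probe sets, with a median of 0.36. They were Stmn1 (1.94), a microtubule regulator, Top2a (1.84), a topoisomerase, Cdk1 (1.41), the mitotic kinase, and cyclin B2 (Ccnb2, 1.03). Under the cluster term 6 were higher, beside 1% of all. Between day 5 and day 40, 5 were lower, beside 0.311% of all. Between day 5 and day 115, 12 of 22 were lower, beside 5.62% of all, and the median was -0.71. With the term 10 were lower, beside 7.1% of all. Stmn1 went from 186.3 ± 106.7 (n = 4) in unirradiated hosts to 799.1 ± 391.5 (n = 8) at day 5, 129.8 ± 28.27 (n = 4) at day 40 and 176 ± 41.51 (n = 3) at day 115.

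Of 15 tested genes linked with quiescence, Il7r, the interleukin 7 receptor, was the only gene called at day 5, where 0.38% of all probe sets were lower. It was lower by a log2 difference of -1.17 ± 0.25 (SE, limma adjusted p = 0.0348), from 1775 ± 399.2 (n = 4) to 787.4 ± 188.9 (n = 8). By day 40 it was up from day 5 by 1.47 ± 0.25 (adjusted p = 0.00545), and Txnip, a thioredoxin inhibitor, by 1.48 ± 0.24 (adjusted p = 0.00287). These 2 were the only ones called there, beside 0.943% of all probe sets higher. At day 115, 3 of the 15 were lower and 1 higher than in unirradiated hosts, beside 12.8% and 15.1% of all probe sets. Ddit4, a stress-induced inhibitor of mTOR signalling, had a log2 difference of -3.65 ± 0.84 (adjusted p = 0.00587), Tob1, an antiproliferative gene of T cells, of -1.22 ± 0.21 (adjusted p = 0.00135) and Btg1, a relative of Tob1, of -0.88 ± 0.25 (adjusted p = 0.0151). Slfn2, which helps keep T cells quiescent, went the other way, at 1.81 ± 0.36 (adjusted p = 0.00278). Under the cluster term the values were -1.08 for Ddit4, -1.07 for Tob1, -0.94 for Btg1 and 0.90 for Slfn2, and of these Tob1 alone passed (adjusted p = 0.0256).

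**Figure D4:**
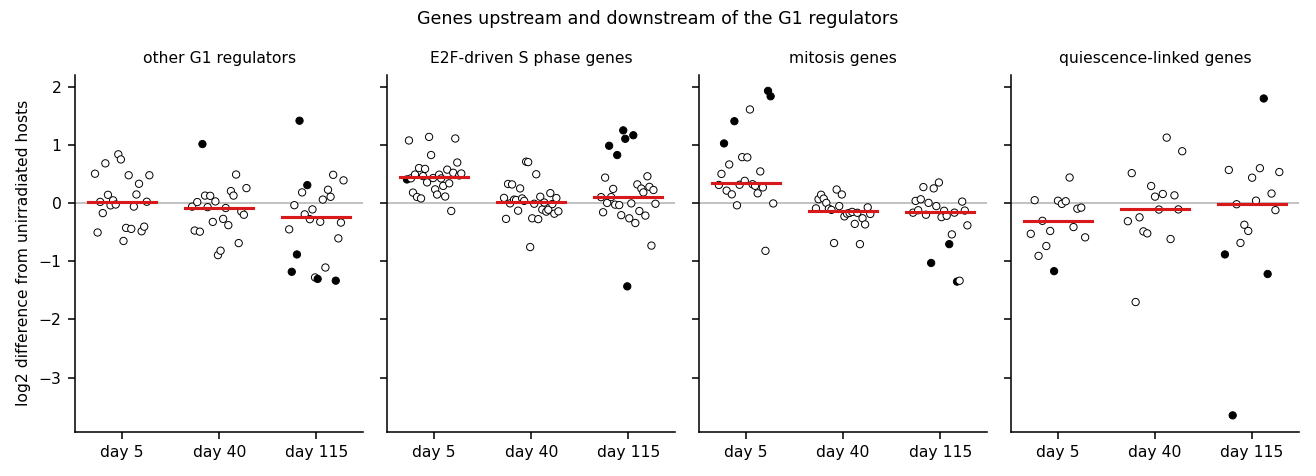
Log2 difference from unirradiated hosts (vertical axis, log2 of signal plus 16) at day 5, day 40 and day 115 for the tested genes of 4 lists, 1 point per gene, filled where called, with the list median as a red line. The E2F-driven genes have a median of 0.45 at day 5 and 0.03 at day 40.

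Some genes followed these in level. Within cluster 1 (n = 8 arrays) and cluster 2 (n = 11 arrays) separately, the genes most like Cdk4 were Sdhc (Pearson r 0.953 and 0.905), Tpi1 (0.910 and 0.876) and Acot7 (0.919 and 0.864). Those most like Ccnd3 were Tmem229b (0.865 and 0.822), Sdhc (0.815 and 0.862) and Akt1 (0.845 and 0.804). For Cdkn2c they were Txn1 (0.923 and 0.916), Cks1b (0.925 and 0.858) and Ccnb2 (0.851 and 0.868). For Ccnd2 they were Dynll1 (0.853 and 0.839), Pigx (0.752 and 0.787) and Rer1 (0.749 and 0.821). These are descriptions chosen as the highest of many, and arrays of a cluster share the group differences as well.

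Markers of other cells differed between groups and between the array clusters. The summed signal of 12 tested B cell markers of 15 listed was 1291.8 to 1585.2 in unirradiated, 1533.9 to 3299.3 in day-5, 1904.0 to 3750.6 in day-40 and 3104.5 to 4998.8 in day-115 arrays. Within day 5 it split as Ccnd2 did, though in the opposite direction, at 2526.8 to 3299.3 in arrays 1 to 3 and 1533.9 to 1688.3 in arrays 4 to 8. At day 115, 6 of the 12 were called higher, beside 15.1% of all probe sets, and 1 with array cluster as a term, beside 3.15% of all. The largest rise in signal was that of Ighm, from 499.6 ± 41.62 (SD, n = 4) in unirradiated to 1944 ± 319.2 (n = 3) in day-115 arrays. H2-Aa averaged 89.98 and 430.8, Cd79a 135.6 and 156.3, and Pax5 98.6 and 108.1.

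The 4 tested plasma cell markers of 7 listed summed to 195.0 to 271.7, 204.1 to 385.7, 282.9 to 815.0 and 880.7 to 1185.1 in the same order. Most of that rise came from Txndc5, which averaged 111.7 ± 23.98 (SD, n = 4) in unirradiated and 860.2 ± 166.1 (n = 3) in day-115 arrays. Jchain averaged 33.64 and 87.32, Xbp1 46.96 and 34.81, and Sdc1 36.47 and 39.64. The 8 tested myeloid markers of 13 listed summed to 2444.8 to 3217.7 in unirradiated, 1540.2 to 3038.8 in day-5, 1471.7 to 3061.7 in day-40 and 979.2 to 1721.8 in day-115 arrays. This sum too split by cluster within day 5, at 1540.2 to 1610.2 in arrays 1 to 3 and 2749.3 to 3038.8 in arrays 4 to 8. It was nearly all Ctss, which averaged 2459 ± 318.6 (n = 4) in unirradiated and 1015 ± 362.2 (n = 3) in day-115 arrays. Cd14 (129.3 and 111.1), Fcgr3 (55.38 and 50.7), Cd68 (52.34 and 48.69) and S100a8 (40.22 and 37.33) were also lower at day 115. Csf1r (46.86 and 55.51), Tyrobp (36.14 and 48.92) and S100a9 (29.04 and 39.01) were higher. Erythroid markers summed to 307.2 to 482.6 in unirradiated, 341.4 to 2637.5 in day-5, 475.0 to 1114.4 in day-40 and 584.1 to 1346.7 in day-115 arrays. Most of that rise came from Hba-a1, which averaged 136.9 ± 38.29 (n = 4) in unirradiated and 745.4 ± 398.1 (n = 3) in day-115 arrays. Alas2 averaged 56.53 and 74.28 and Epor 42.39 and 46.41. Lower at day 115 were Car1 (36.68 and 29.15), Car2 (63.02 and 47.87) and Klf1 (46.2 and 39.03).

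The 10 tested CD8 T cell markers of 12 listed summed to 9880.9 to 11851.3 in unirradiated, 10545.7 to 17002.4 in day-5, 10217.3 to 16996.5 in day-40 and 13046.5 to 14528.3 in day-115 arrays. Their day-5 sums were 15078.8 to 17002.4 in arrays 1 to 3 and 10545.7 to 13703.1 in arrays 4 to 8. Cd8a was bright in every group, from 1851 to 3906, and averaged 2533 in unirradiated and 2079 in day-115 arrays. Cd3d (717.8 and 562.2) and Cd3e (284.5 and 243.4) were also lower at day 115. Higher there were Thy1 (997.7 and 2102), Cd2 (714.3 and 1807), Cd8b1 (3054 and 3720) and Zap70 (1010 and 1667). So were Cd3g (780.6 and 1194), Cd5 (375.7 and 469.7) and Cd247 (118.1 and 145.7). No array signal was 0. The part of the other cells in the day-115 rises of Ccnd3 and Cdk4, and in the split of Ccnd2, was not tested, and in these sorted populations a change in the cells present and a change in RNA per cell cannot be told apart.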

How the data were processed

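The authors deposited a table of 1 signal intensity per probe set for each of 19 arrays (how these were computed and scaled: not given in the sources used here). They ran from 7.68 to 13242.28, and array medians from 49.6 to 53.7, so no further normalisation was applied. Of 12488 probe sets, 66 controls were left out. The platform annotation gave 1 symbol for 10833 of the other 12422, several for 396, and did not list 1193. Array intensities carry no read depth, and the number of arrays limits the precision. Intensities of different probe sets were not compared.

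Differences were fitted with limma 3.58.1 in R 4.3.3 on log2(signal + 16), with all 19 arrays in 1 fit, 1 mean per group and a trended eBayes. The Benjamini-Hochberg adjustment ran over all 8695 probe sets, and an adjusted p under 0.05 counts as called. The fit was tested on simulated data. Alternatives were pseudocounts of 1 and 64, no filter, a filter at the 50th percentile, quantile normalisation, array cluster as a term, each cluster alone, the replicate number as a block, and each array left out.

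All probe sets of the named genes are reported. From each pathway list at most 4 called genes with the greatest absolute difference in a comparison are named, by their brightest probe set, along with the 3 genes most like each called member. A few others (Myc, single markers) are named beside a result. The members and lists were chosen with earlier results of these data known. No lists were tested as sets.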

Additional observations from a re-analysis of the deposited data

Results flagged for a closer look

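In 8 of 42 groups of 4 or 8 arrays, 1 array stood apart from the others by Dixon's criterion, which chance alone meets in about 1 of 20 groups. In day-5 array 1, Cdk2 read 160.11 on its brighter probe set (the other 7 arrays 57.15 to 73.85) and 23.96 on its dimmer (16.76 to 19.95). The same array read 86.63 on the dimmer Cdk4 probe set (57.34 to 62.88) and 35.47 for Cdkn1b (21.42 to 27.8). In day-5 array 4, Rb1 read 66.34 (17.92 to 38.2) on its brighter and 23.94 (13.0 to 16.39) on its dimmer probe set. In day-40 array 1 the dimmer Cdk4 probe set read 65.02 (52.03 to 54.0). In unirradiated array 2 the dimmer Rb1 probe set read 15.45 (13.91 to 14.16).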

How the results depend on the processing

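Of 1092 values for single probe sets under the alternatives, 1046 kept their side of the threshold, 32 lost a call and 14 gained one. No called value changed sign, while 72 uncalled ones, all among the 1046, did. At day 5 against unirradiated hosts the count of 2 called became 3 with a pseudocount of 1 (the dimmer Cdk4 probe set added, limma adjusted p = 0.0459), 0 with a pseudocount of 64 and 0 with no filter, 1 with quantile normalisation, 1 with array cluster as a term, 4 within cluster 2, 1 with no filter and the term together, and 0 to 2 with an array left out. Over all probe sets, 69 of 8695 were called there in the main fit. In the same order this became 71, 55, 62 (of 12422), 65, 140, 207, 112 (of 12422) and 13 to 80. At day 115 against unirradiated hosts the count of 4 became 2 with the term, with or without the filter. Over all probe sets the main count of 2427 of 8695 became 384 with the term, or 308 of 12422 without the filter. From day 5 to day 40 the count of 0 became 1 with the term, with or without the filter. Over all probe sets the main count of 109 of 8695 became 650 with the term, or 563 of 12422 without the filter. From day 5 to day 115 the count of 0 became 1 with no filter, 1 with the term, 1 with both, and 0 to 2 with an array left out, Ccnd2 being called without day-5 array 1, 2 or 3 and E2f1 without day-5 array 1 or 2. Over all probe sets the main count of 1205 of 8695 became, in the same order, 1865 of 12422, 1246 of 8695, 1430 of 12422 and 589 to 1653 of 8695. The fit with no filter and the term was chosen after seeing the data.

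With the replicate number as a block, 5 were called at day 5 in place of 2: Cdk4 (both probe sets), Cdkn2c, Ccne1 (0.42, limma adjusted p = 0.0441) and Ccnd2 (-1.92, limma adjusted p = 0.0148). Over all 8695 tested probe sets the block called 1707 in place of 69, so calls rose across the array and not only among these genes. The numbers did not pair the arrays: same-numbered arrays had correlations of their deviations from -0.666 to 0.763, above 0.1 in 8 of 21 pairs. Signals near the filter are those of Cdkn1b, Rb1 and the dimmer E2f1 probe set, and the main scale understates their fold changes. It compresses their SE as well. For day 5 against unirradiated hosts the SE was 0.07 for Cdkn1b and 0.17 for Rb1. With a pseudocount of 1 these were 0.11 and 0.24. The SE of Ccnd2 was 0.55 in the main fit.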
